A study of Mus musculus with 9 samples.

Results

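The genes of cholesterol synthesis and its control by SREBP2 were followed in the livers of mice with nonalcoholic steatohepatitis (NASH). The 27 genes were taken by symbol from a list of sterol pathway genes, by a rule that uses no measured value, and all 27 were found among the 24008 genes listed in the deposited count table. They comprise 19 enzymes on the way from acetyl-CoA to cholesterol, 4 regulators (Srebf2, Scap, Insig1 and Insig2) and 4 genes of sterol transport, esterification and uptake (Stard4, Soat1, Soat2 and Npc1l1). Of these, 26 had enough counts to enter the test, which covered 14379 genes, and Npc1l1 did not. RNA of whole liver pieces from 9 mice was sequenced, with 3 mice per group and 1 library per mouse. All mice received a diet high in fat and carbohydrate, to which the study added cholesterol and sugar in the drinking water. The Flox group carried floxed Irf4 alleles without a deletion (the labels call it WT), the F4MKO group lacked the transcription factor IRF4 in skeletal muscle through a muscle Cre (Myl-Cre), and the F4MKO + FSTL1 group was F4MKO with the secreted protein FSTL1 overexpressed in muscle. For this overexpression an AAV8 vector with the muscle creatine kinase promoter and Flag-tagged FSTL1 was injected into the gastrocnemius, and per the methods the other groups received AAV-GFP there, a vector that the labels do not name. Livers were collected 4 weeks after the virus, and the text gives the time on diet as 24 weeks in most places and as 12 weeks in the section on the virus. Both alterations were directed to muscle, and the liver was read out. The age of these mice is not given in the labels.

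Total counts per library ranged from 20656976 to 24322984. Liver Irf4 differed by -0.09 on the log2 scale (SE 0.51, adjusted p = 0.946) in F4MKO compared with Flox livers, which does not check a deletion in muscle. For Fstl1 mRNA in the liver the log2 value was -1.53 (SE 0.22, adjusted p = 0.00171) in F4MKO + FSTL1 against F4MKO, and the muscle transgene itself was not measured. By QPCR, the study reports no change of liver Fstl1 mRNA after the injection. Hepatocyte markers dominated every library, with a summed level of 70288 to 101778 CPM (counts scaled to a common library size) over 9 listed genes including albumin, and 4 skeletal muscle markers summed to at most 0.223 CPM. F4MKO replicate 1 had the lowest hepatocyte sum, and the next lowest was 82718 CPM in F4MKO + FSTL1 replicate 2.

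Cholesterol is built from acetyl-CoA through mevalonate and isoprenoid units to squalene, which is cyclized to lanosterol and then trimmed and reduced to cholesterol. The transcription factor SREBP2, the product of Srebf2, is made as a membrane protein of the endoplasmic reticulum. When sterols are low its escort SCAP carries it to the Golgi for cleavage, and its released part enters the nucleus and activates the genes of this pathway. When sterols are high, INSIG proteins retain SCAP and SREBP2 in the endoplasmic reticulum. In the liver the pathway runs beside dietary uptake, bile acid synthesis and lipoprotein secretion.

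The promoters of 3 genes are shown because their transcripts behaved differently between the groups. Hmgcs1 encodes HMG-CoA synthase, the classical sterol-regulated enzyme at the entry of the pathway. Tm7sf2, a sterol reductase, was the enzyme called higher with FSTL1, and Soat1, a cholesterol-esterifying enzyme, was called lower. Each run gives the 250 bases before the RefSeq transcription start on mouse build GRCm38.p6, 5′ to 3′ on the gene's strand, at chr13:119690101-119690350 (plus strand) for Hmgcs1, chr19:6067851-6068100 (minus strand) for Tm7sf2 and chr1:156474329-156474578 (minus strand) for Soat1. Capitals mark the sterol element TCACCCCAC and the CCAAT box, which reads ATTGG on the other strand.
Hmgcs1: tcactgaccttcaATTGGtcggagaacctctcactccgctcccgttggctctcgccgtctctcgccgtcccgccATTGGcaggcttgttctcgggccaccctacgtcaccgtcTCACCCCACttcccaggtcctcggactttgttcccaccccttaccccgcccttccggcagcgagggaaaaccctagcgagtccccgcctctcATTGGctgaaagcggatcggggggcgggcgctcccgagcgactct
Tm7sf2: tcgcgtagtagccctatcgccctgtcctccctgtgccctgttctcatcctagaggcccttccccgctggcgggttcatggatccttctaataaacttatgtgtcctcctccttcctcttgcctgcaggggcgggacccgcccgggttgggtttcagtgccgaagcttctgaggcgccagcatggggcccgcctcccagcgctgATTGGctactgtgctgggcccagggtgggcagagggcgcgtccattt
Soat1: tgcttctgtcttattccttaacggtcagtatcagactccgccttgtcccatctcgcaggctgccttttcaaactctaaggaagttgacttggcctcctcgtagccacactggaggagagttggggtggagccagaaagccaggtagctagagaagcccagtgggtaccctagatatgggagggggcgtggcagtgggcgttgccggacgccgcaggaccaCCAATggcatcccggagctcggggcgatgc

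SREBP2 binds sterol elements, of which TCACCCCAC is a variant form, next to sites for the general factors NF-Y (CCAAT) and Sp1 (GGGCGG). Windows of 250 bases before to 50 bases after a RefSeq start were given for 22 of the 27 genes, and were searched on both strands for each motif. The element TCACCCCAC was found in 1 of these 22 genes, Hmgcs1, where it begins 137 bases before the start, against 0.614% of all 27025 genes with a window. The looser form TCACNCCAC was found in the same gene alone (1.44% of all genes), as was TCANNCCAC (4.78%). These forms contain each other, so they are not separate matches. A CCAAT box stood in 20 of the 22 genes (90.9%), against 41.1% of all genes and 42.4% of the 10768 tested genes with a window. The GC box GGGCGG stood in 19 of the 22 (86.4%), against 38.2% of all genes and 64.1% of tested genes, and the E-box CACGTG in 5 (22.7%), against 8.09% and 11.5%. Per window rather than per gene, these motifs were present in 0.551% (TCACCCCAC), 37.4% (CCAAT), 35.7% (GGGCGG) and 7.15% (CACGTG) of 32851 windows. In Tm7sf2 the CCAAT box begins 47 bases and in Soat1 30 bases before the start. A match is a description of the letters only, and binding was not measured. Windows for Fdps, Fdft1, Sqle, Stard4 and Soat2 were not used here.

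The genes spanned a wide range of levels in liver. Per transcript length and on the TPM scale, Insig2 was the most abundant in Flox livers (265 ± 74.6, SD, n = 3), ahead of Ebp, the isomerase of the late pathway (202 ± 8.28), and Sc5d, the lathosterol desaturase (129 ± 18.5). Insig2 and Ebp did not differ beyond their spread, and neither did Sc5d and Insig1 (103 ± 26.3). At the lower end stood Idi1 (3.74 ± 0.960), Sqle (2.87 ± 0.365) and Soat1 (1.12 ± 0.0963). Sqle encodes squalene epoxidase, a rate-limiting step of the pathway, and its TPM was the lowest of the 19 enzymes in all 3 groups. Idi1 and Sqle overlapped within their SDs, whereas Soat1 lay below both. The order changed little between groups: the same 5 genes held the top 5 ranks and the same 6 genes the lowest 6 in each. Npc1l1, the intestinal sterol uptake transporter, had 0 or 1 count in each of the 9 libraries and lay under the floor of 3 counts.

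**Figure D1:**
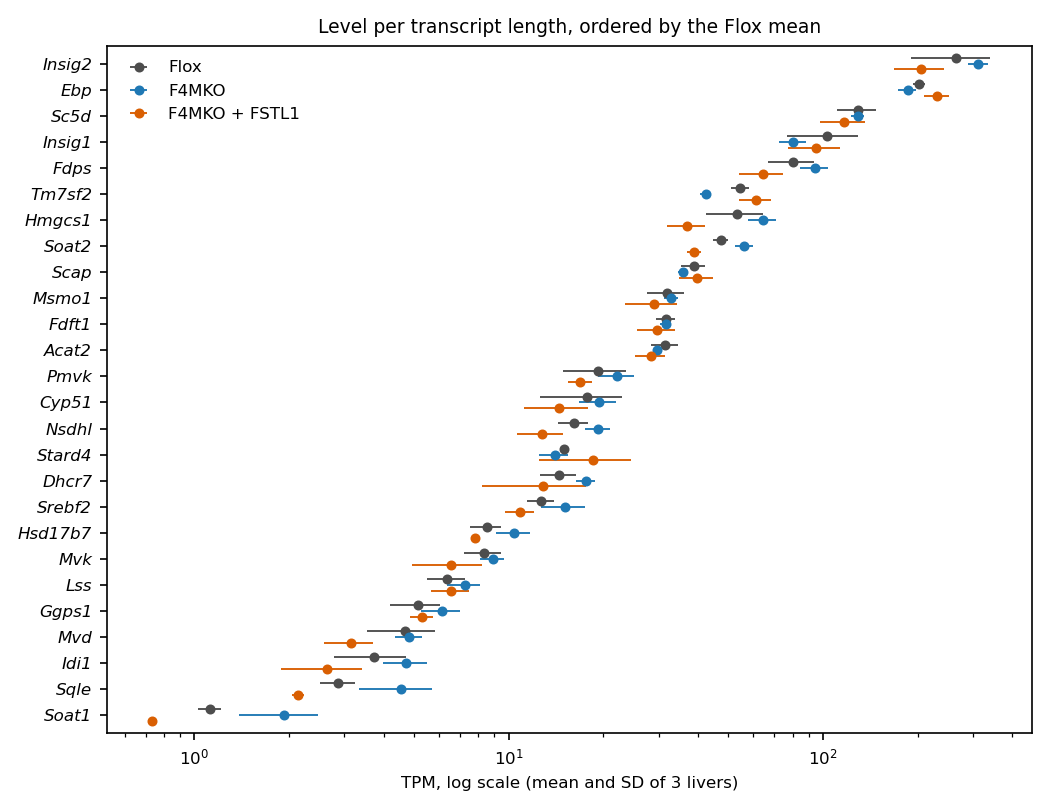
Level per transcript length of the 26 tested genes on a logarithmic TPM axis, as mean (dot) and SD (bar) of 3 livers per group, ordered by the Flox mean. Insig2, Ebp and Sc5d lie above 100 in Flox livers and Sqle and Soat1 lie lowest.

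The first comparison asked what the loss of IRF4 in muscle did to these genes in the liver. In F4MKO compared with Flox livers, 0 of 26 genes passed the test of edgeR (adjusted p under 0.05 and a fold change above 1.5, called below), and 0.271% of all 14379 tested genes did. At an unadjusted p under 0.05 there were 6 of 26 genes (23.1%), against 16.9% of all genes, and DESeq2 also called 0. The log2 fold changes ran from -0.55 to 0.59 with a median of 0.02 (-0.00 over all genes), with 14 genes higher and 12 lower. The split moved with single libraries, to 8 higher and 18 lower without Flox replicate 3, to 16 and 10 without Flox replicate 1, and to 11 and 15 without F4MKO replicate 2 or 3.

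The 2 groups did not overlap for 6 of 26 genes (23.1%), near the background of 21.8%. Tm7sf2, the lamin B receptor relative that reduces the C14 double bond of sterols, came nearest to the threshold. Its CPM was 48.5, 39.8 and 42.4 in the Flox livers and 27.9, 29.1 and 32.4 in the F4MKO livers. Every F4MKO liver lay below every Flox liver, with a log2 fold change of -0.55 (SE 0.11, adjusted p = 0.0610). DESeq2 gave it an adjusted p of 0.00247, with the fold still under 1.5, and over all alternatives its adjusted p ran from 0.00247 to 1. Ebp, Scap and Stard4 were also lower without overlap, with log2 fold changes of -0.30, -0.29 and -0.28 (adjusted p = 0.202, 0.171 and 0.441). Soat1 and Sqle were the members higher without overlap, at 0.59 (SE 0.19, adjusted p = 0.159) and 0.47 (SE 0.17, adjusted p = 0.214). For both, F4MKO replicate 3 lay close to the Flox livers.

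The second comparison asked what FSTL1 from muscle did in mice without muscle IRF4. In F4MKO + FSTL1 compared with F4MKO livers, 4 of 26 genes were called (15.4%), which is near the 14.4% of all tested genes. Tm7sf2 and the sterol carrier gene Stard4 were higher, and Sqle and Soat1 were lower. The 2 called higher (7.69%) stood against 3.21% of all genes called higher, and the 2 called lower (7.69%) against 11.2% called lower. At an unadjusted p under 0.05 there were 11 of 26 genes (42.3%), against 35.3% of all genes. The 26 genes lay on both sides of 0. The median log2 fold change was -0.13 (0.01 over all genes), with 11 higher and 15 lower and a range from -1.10 to 0.80. A test against the 1.5-fold threshold itself called 0 of the 26 and 620 of all genes, so each of the 4 was distinguishable from no change and not from a change of 1.5-fold.

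**Figure D2:**
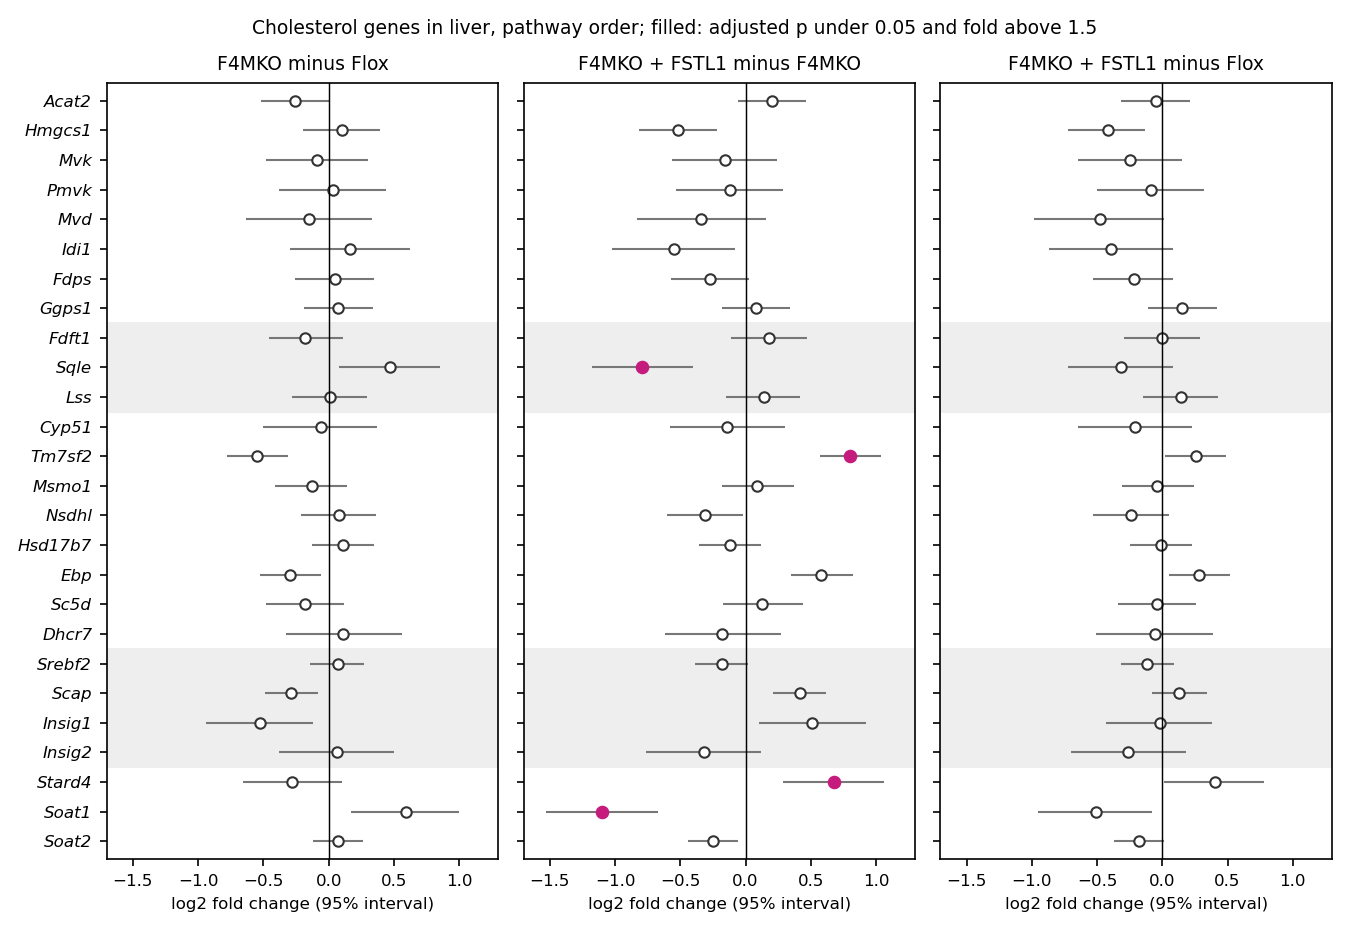
Log2 fold change of each of the 26 tested genes in pathway order, with its 95% interval, in F4MKO minus Flox, F4MKO + FSTL1 minus F4MKO and F4MKO + FSTL1 minus Flox. Filled dots mark Sqle, Tm7sf2, Stard4 and Soat1, the 4 genes called, all in the middle panel; grey bands separate the roles.

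The groups did not overlap for 15 of the 26 genes (57.7%) in this comparison, against 39.0% of all genes. Higher in every F4MKO + FSTL1 liver were 5 genes (19.2%, against 18.0% of all genes), namely Tm7sf2, Ebp, Scap, Insig1 and Stard4. Lower in every F4MKO + FSTL1 liver were 10 genes (38.5%, against 21.1%), namely Hmgcs1, Mvd, Idi1, Fdps, Sqle, Nsdhl, Srebf2, Insig2, Soat1 and Soat2. These 10 include early enzymes of the pathway (Hmgcs1, Mvd, Idi1 and Fdps), its transcription factor and both esterifying enzymes, and 2 of them were called. Some separations were very narrow. The highest F4MKO + FSTL1 and lowest F4MKO values were 359 and 361 CPM for Insig2 and 29.7 and 29.9 CPM for Srebf2. For Nsdhl both were 16.1 CPM after rounding. With library totals in place of TMM factors, a scaling added after the data were seen, the median of all genes moved to -0.18 and the median of these genes to -0.33, with 6 higher and 20 lower. Under that scaling 215 genes of the whole table were called higher and 2282 lower, against 461 and 1609 with TMM. The changes below are relative to the TMM scaling, and the 4 called genes kept their directions under both.

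The early enzymes, from Acat2 to Ggps1, turn acetyl-CoA into farnesyl and geranylgeranyl diphosphate, and none of the 8 was called. Hmgcs1 had 86.9, 103 and 89.2 CPM in the F4MKO livers and 71.1, 65.1 and 58.2 CPM in the F4MKO + FSTL1 livers. The groups were separate, and the log2 fold change of -0.52 (SE 0.14, adjusted p = 0.0203) passed the p threshold but not the fold. In Flox livers it stood at 94.6, 96.8 and 69.4 CPM, so Flox replicate 3 lay with the F4MKO + FSTL1 livers. Idi1, the isomerase of the isoprenoid units, had 6.33, 5.44 and 5.95 CPM in F4MKO livers and 5.14, 3.84 and 3.08 CPM in F4MKO + FSTL1 livers, with a log2 fold change of -0.55 (SE 0.21, adjusted p = 0.0903). Both were called when F4MKO + FSTL1 replicate 1 was left out, at -0.59 for Hmgcs1 (adjusted p = 0.0295) and -0.76 for Idi1 (adjusted p = 0.0417), and both with library totals, at -0.71 and -0.75. Their level in that library was nearest to the F4MKO livers. The other 6 early genes had log2 fold changes between -0.34 (Mvd, the decarboxylase) and 0.20 (Acat2, the thiolase), and the median of all 8 was -0.22.

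Of the 3 genes from squalene to lanosterol, Sqle fell. It had 5.73, 5.61 and 4.03 CPM in the F4MKO livers and 3.04, 2.84 and 3.03 CPM in the F4MKO + FSTL1 livers. The groups were separate, and its log2 fold change was -0.79 (SE 0.18, adjusted p = 0.0106, a 1.73-fold lower level). In Flox livers it was 3.61, 4.02 and 3.51 CPM, between the other groups. Sqle is expressed at a low level here, with 58 to 162 counts per library. Fdft1, the squalene synthase, and Lss, the lanosterol synthase, flank it in the pathway and had log2 fold changes of 0.18 (SE 0.13, adjusted p = 0.363) and 0.14 (SE 0.13, adjusted p = 0.488). Exons of Fdft1 share 774 bases with Ctsb on the opposite strand, and Hmgcs1, Idi1, Ggps1, Lss, Cyp51 and Scap also share exon bases with a gene on the other strand. Whether strand was used in counting is not given in the sources used here, so reads of such pairs may be shared. Exons of Fdps share 1124 bases with Gm43738 on the same strand, and its counts are uncertain for that reason.

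Among the 8 genes from lanosterol to cholesterol, Tm7sf2 rose and the others were not called. Its CPM was 49.2, 57.8 and 49.2 in the F4MKO + FSTL1 livers, above all 3 F4MKO livers (27.9 to 32.4) and all 3 Flox livers (39.8 to 48.5). The log2 fold change against F4MKO was 0.80 (SE 0.11, adjusted p = 0.00140, a 1.75-fold higher level), with the smallest adjusted p of the 26 genes. Its exons share 532 bases with Vps51 on the same strand, where Vps51 itself stood at 0.04 on the log2 scale (adjusted p = 0.808). Ebp, which shifts the C8 double bond, stood at 122, 146 and 137 CPM in F4MKO livers and 214, 201 and 191 CPM in F4MKO + FSTL1 livers. These values did not overlap, and the log2 fold change of 0.58 (SE 0.11, adjusted p = 0.00441) fell just short of the fold threshold at 0.585 on the log2 scale. With DESeq2's size factors or without the filter on low counts it was 0.59, and Ebp was called. Ebp was thus the member just outside the threshold, and Stard4 at 0.68 the nearest inside.

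Cyp51, the lanosterol demethylase and a common reference gene of SREBP2 activity, had 32.6, 31.7 and 30.3 CPM in F4MKO livers and 31.1, 32.4 and 22.1 CPM in F4MKO + FSTL1 livers. These overlapped, with a log2 fold change of -0.14 (SE 0.20, 95% interval -0.58 to 0.30, adjusted p = 0.648). Its Flox values of 45, 28.7 and 25.2 CPM spanned a wider range than either other group. Dhcr7, the last reductase of the pathway, had 21.2, 23.4 and 28.3 CPM in F4MKO livers and 29.5, 14.9 and 20.1 CPM in F4MKO + FSTL1 livers, and its interval ran from -0.62 to 0.27. Msmo1, Hsd17b7 and Sc5d lay between -0.12 and 0.13, and Nsdhl, the sterol dehydrogenase, at -0.31 (SE 0.13, adjusted p = 0.114).

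**Figure D3:**
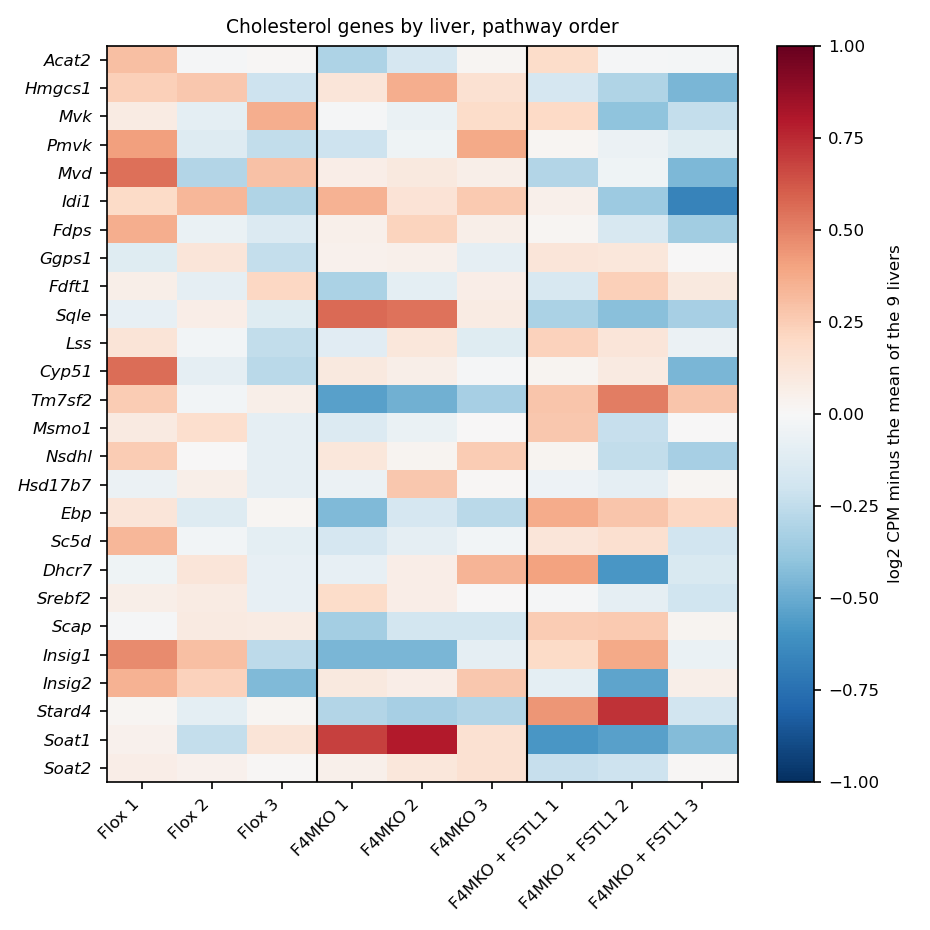
Log2 CPM of each of the 26 tested genes in each of the 9 livers, minus its mean over the 9 livers (red higher, blue lower; colours saturate at 1). Soat1 and Sqle are red in F4MKO replicates 1 and 2 and blue in the F4MKO + FSTL1 livers, Tm7sf2 and Ebp show the opposite, and Flox replicate 1 is red for many enzymes.

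The regulators were not called, and their intervals set how large a change these data allow. Srebf2 mRNA was nearly level, with 31.0, 31.5 and 28.2 CPM in Flox, 33.7, 31.4 and 29.9 CPM in F4MKO and 29.7, 28.0 and 25.9 CPM in F4MKO + FSTL1 livers. The last group lay just below the F4MKO livers, at a log2 fold change of -0.18 (SE 0.09, 95% interval -0.39 to 0.02, adjusted p = 0.185). Cleavage of the SREBP2 protein was not measured. Scap, the escort, stood at 58.4, 65.3 and 65.6 CPM in F4MKO and 88.3, 88.5 and 75.7 CPM in F4MKO + FSTL1 livers. The groups were separate at 0.42 (SE 0.09, adjusted p = 0.0110), past the p threshold and short of the fold. Its Flox values, 73.5, 79.1 and 78.3 CPM, also lay above all F4MKO values.

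Insig1 is itself a target of SREBP2, while liver Insig2 is known to be driven by other signals, and the log2 fold changes of their mRNAs had opposite signs in F4MKO + FSTL1 compared with F4MKO livers. Insig1 had 157, 140 and 94.8 CPM in Flox, 82.4, 82.4 and 106 CPM in F4MKO and 130, 148 and 109 CPM in F4MKO + FSTL1 livers. The F4MKO + FSTL1 livers were all above the F4MKO livers, by 0.51 (SE 0.19, adjusted p = 0.0721), and Insig1 was called without F4MKO replicate 3, at 0.65 (adjusted p = 0.0457). Insig2 had 441, 404 and 254 CPM in Flox, 368, 361 and 415 CPM in F4MKO and 321, 238 and 359 CPM in F4MKO + FSTL1 livers. All F4MKO + FSTL1 values lay below the F4MKO values, the highest only just, at a log2 difference of -0.32 (SE 0.20, adjusted p = 0.286). The ratio of Insig1 to Insig2 per transcript length, chosen after the values were seen, does not depend on library scaling. It was 0.390, 0.381 and 0.409 in Flox, 0.245, 0.250 and 0.281 in F4MKO and 0.443, 0.683 and 0.331 in F4MKO + FSTL1 livers. The ratio was lower in every F4MKO liver than in any other liver. The two-sided exact permutation p against either group is then 0.1, the smallest that 3 against 3 allows, and adds nothing to the separation. Flox replicate 3, with the lowest Insig1 and Insig2 of its group, had a ratio like the other Flox livers.

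Stard4, the carrier that moves cholesterol between membranes, rose with FSTL1. It stood at 37.7, 34.6 and 37.6 CPM in Flox, 30.5, 29.6 and 30.4 CPM in F4MKO and 50.6, 61.2 and 32.7 CPM in F4MKO + FSTL1 livers. The F4MKO values were the tightest of any group, while F4MKO + FSTL1 replicate 3 lay only just above them and below all Flox livers. The log2 fold change against F4MKO was 0.68 (SE 0.17, adjusted p = 0.0193, a 1.60-fold higher level). The call was lost without F4MKO replicate 1 (adjusted p = 0.0649), F4MKO replicate 2 (0.0565), F4MKO + FSTL1 replicate 1 (0.0526) or F4MKO + FSTL1 replicate 2 (0.0809, at 0.47), and with library totals (0.48, adjusted p = 0.0803). Stard4 was thus the least stable of the 4 calls, and the other 3 were made whichever library was left out.

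Soat1 and Soat2 both store cholesterol as esters, Soat1 in most cell types including macrophages and Soat2 in hepatocytes and the intestine. Soat1 fell the most of the 26 genes. It had 4.59, 3.77 and 4.88 CPM in Flox, 7.22, 7.75 and 4.95 CPM in F4MKO and 2.94, 3.03 and 3.29 CPM in F4MKO + FSTL1 livers. The 3 groups did not overlap, although F4MKO replicate 3 was only just above the highest Flox liver. The log2 fold change was -1.10 (SE 0.20, adjusted p = 0.00372, a 2.15-fold lower level) in F4MKO + FSTL1 compared with F4MKO livers. Soat2 had 50, 49.2 and 48.1 CPM in Flox, 49.6, 51.5 and 53.2 CPM in F4MKO and 40.6, 41.3 and 48.0 CPM in F4MKO + FSTL1 livers. It was lower in each of the last group, by less, at -0.25 (SE 0.09, adjusted p = 0.0658). The ratio of Soat2 to Soat1 per transcript length, also chosen after the values were seen, was 41.3, 49.5 and 37.4 in Flox, 26.1, 25.2 and 40.8 in F4MKO and 52.3, 51.8 and 55.3 in F4MKO + FSTL1 livers. It was higher in all 3 F4MKO + FSTL1 livers than in any other and overlapped between F4MKO and Flox (exact permutation p = 0.200). For the separated groups the exact permutation p is 0.1, the smallest that 3 against 3 allows, and adds nothing to the separation.

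**Figure D4:**
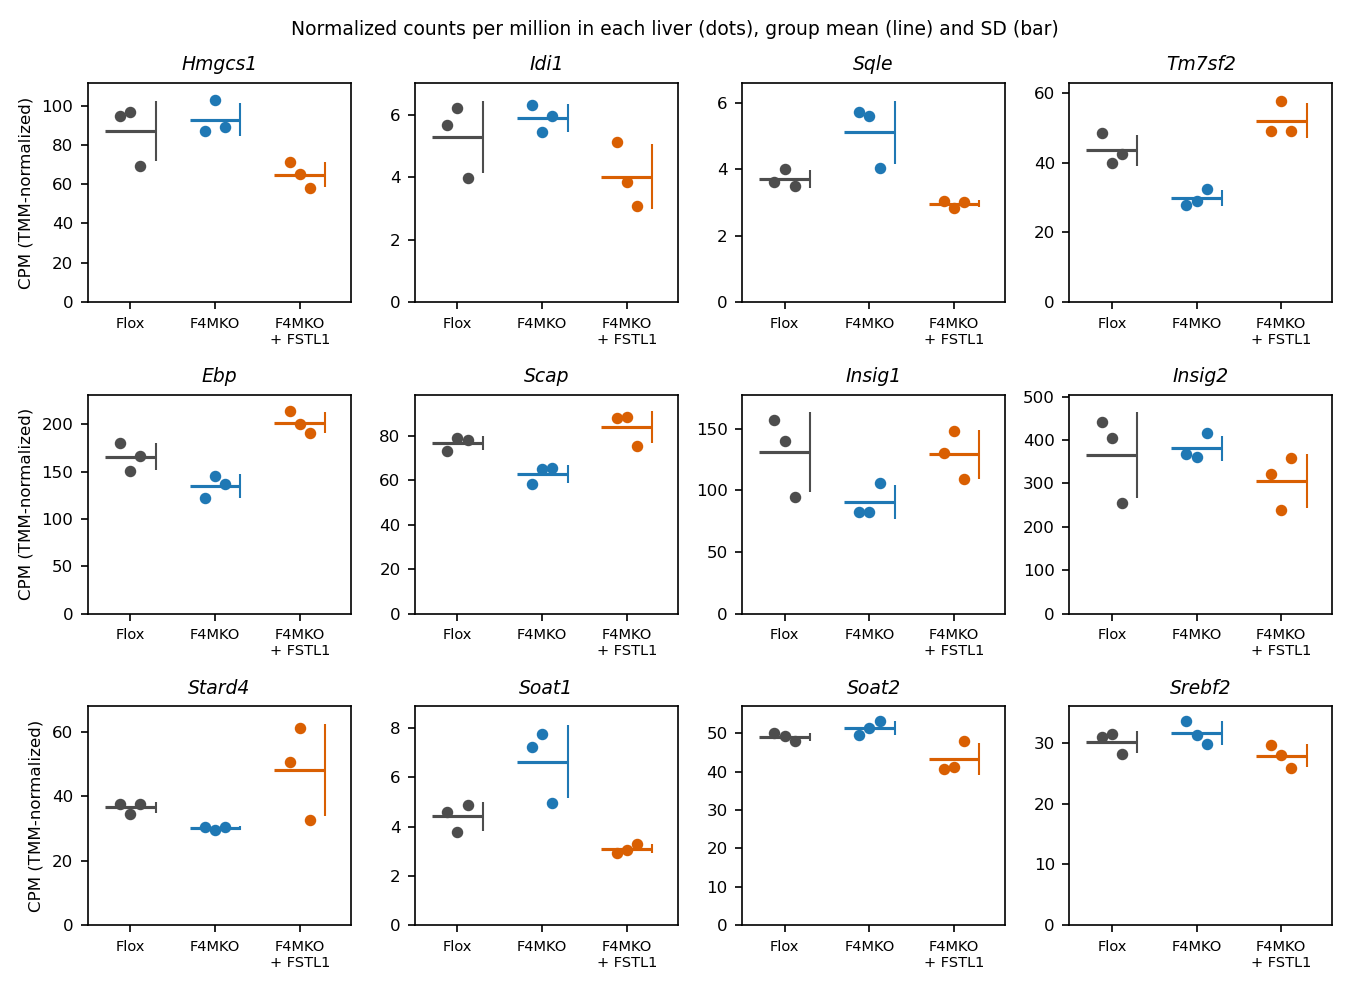
Normalized CPM in each liver (dots) with the group mean (line) and SD (bar) for 12 genes, each on its own axis from 0. By group mean, Tm7sf2, Ebp and Scap are lowest in F4MKO and highest in F4MKO + FSTL1 livers, while Sqle and Soat1 show the reverse order.

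Markers of other liver cells moved in the same comparison as the 4 called genes. Macrophage and Kupffer cell markers summed to 567 to 932 CPM in Flox, 736 to 843 CPM in F4MKO and 344 to 526 CPM in F4MKO + FSTL1 livers. Of these 10 markers 9 were lower and 7 were called lower in F4MKO + FSTL1 compared with F4MKO livers, with a median log2 fold change of -0.99. Stellate cell markers summed to 433 to 509, 587 to 773 and 279 to 387 CPM in the same order of groups, with 10 of 10 lower and 7 called. Cholangiocyte markers summed to 50.7 to 89.0, 161 to 431 and 36.1 to 54.1 CPM (4 of 5 tested called lower), and markers of dividing cells to 13.5 to 24, 27.6 to 34.6 and 5.14 to 8.67 CPM (6 of 6 called lower). Most of the cholangiocyte sum came from Spp1 alone, with mean CPM of 59.9, 248 and 39.7 in the 3 groups. Dcn weighed most in the stellate sum, with means of 255, 326 and 188 CPM. Alb weighed most in the hepatocyte sum, with means of 68418, 64702 and 61032 CPM. Endothelial markers, at 374 to 459, 316 to 389 and 340 to 404 CPM, had 0 of 10 called, and lymphocyte markers, at 3.74 to 10.8 CPM over all livers, 0 of 7. Of 9 tested hepatocyte markers 1 was called, Serpina1a, and it was higher, as was Fabp2, the 1 intestinal marker tested. Fabp2 does not stand for its list. Its group means were 126 to 215 CPM, while those of Vil1 and Lct were at most 0.722 and 0.0297 CPM. No listed marker of these 4 moving cell classes was at 0 throughout. In the study, staining showed fewer Kupffer cells in F4MKO than in control livers, and more with FSTL1. Fibrosis genes are reported there by QPCR as lower in F4MKO livers, with the change undone by FSTL1. Here the macrophage marker Adgre1 (0.05 in F4MKO compared with Flox livers, then -0.96 with FSTL1) and the stellate marker Col1a1 (1.41, then -2.25) had the opposite signs. Only their values with FSTL1 were called, and the reason for the difference was not tested.

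In F4MKO compared with Flox livers, where Soat1 and Sqle were higher without overlap and not called, 3 listed markers were called, all higher. They were the macrophage marker Gpnmb (1.70 on the log2 scale, adjusted p = 0.0404) and the cholangiocyte markers Epcam (2.01, adjusted p = 0.0359) and Spp1 (2.05, adjusted p = 0.0404). Gpnmb does not stand for its list. Of the 10 macrophage markers 7 were higher and 3 lower, with a median of 0.11, and Marco lay at -1.41 (adjusted p = 0.139). The macrophage sums overlapped, at 567 to 932 CPM in Flox and 736 to 843 CPM in F4MKO livers. With FSTL1, Soat1 and Sqle changed in the direction of the macrophage, stellate, cholangiocyte and dividing cell markers, and Tm7sf2 and Stard4 against it. The F4MKO library with the lowest Soat1 and Sqle, replicate 3, also had the lowest macrophage sum of its group (736 CPM), while its stellate sum (667 CPM) and cholangiocyte sum (223 CPM) were in the middle. The part of cell makeup in these results was not tested. In whole liver, fewer cells of a type and less RNA per cell cannot be told apart.

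**Figure D5:**
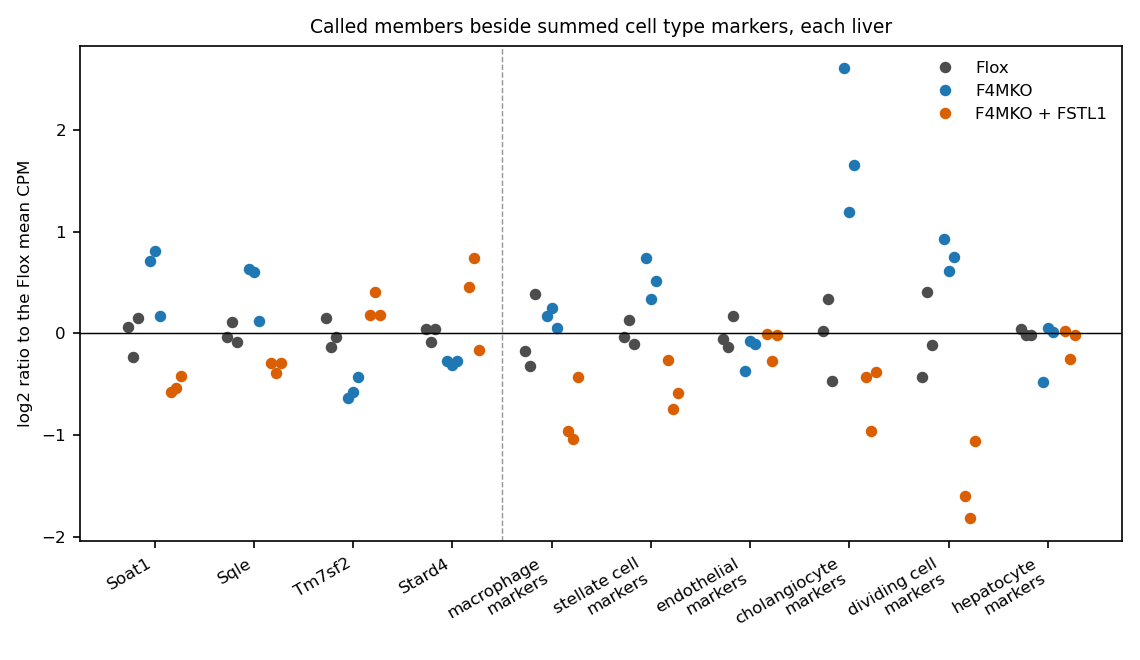
Log2 ratio to the Flox mean CPM in each liver for the 4 called genes (left of the dashed line) and for summed cell type markers (right). Soat1 and Sqle lie above 0 in F4MKO and below 0 in F4MKO + FSTL1 livers, as do the macrophage, stellate, cholangiocyte and dividing cell sums, while the endothelial and hepatocyte sums show no such order. The macrophage sum of Flox replicate 3 lies above all F4MKO livers, and Spp1 makes up most of the cholangiocyte sum.

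The third comparison set F4MKO + FSTL1 against Flox livers. None of the 26 genes was called (0.00695% of all genes, which is 1 gene), DESeq2 also called 0, and 5 genes had an unadjusted p under 0.05 (19.2%, against 13.4% of all genes). The groups did not overlap for 5 genes (19.2%, against 18.2%), with Tm7sf2 and Ebp higher and Sqle, Soat1 and Soat2 lower in each F4MKO + FSTL1 liver. Their log2 fold changes were 0.26 (Tm7sf2, SE 0.11, adjusted p = 0.324), 0.28 (Ebp, adjusted p = 0.280), -0.32 (Sqle, adjusted p = 0.496), -0.51 (Soat1, adjusted p = 0.294) and -0.18 (Soat2). The median over the 26 was -0.08 (-0.00 over all genes), with 7 higher and 19 lower, and without Flox replicate 1 the split was 12 and 14. Stard4 stood at 0.40 (adjusted p = 0.354) and was called without F4MKO + FSTL1 replicate 3, at 0.62 (adjusted p = 0.0317). The 3 comparisons share libraries, so the values of F4MKO livers enter both of the first 2 comparisons with opposite sign.

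The mean level of the enzymes differed between libraries of a group. Over the 19 enzymes, Flox replicate 1 lay highest, with a mean of 0.19 above the mean of the 9 livers on the log2 scale, and it had the highest value of all livers for 8 of the 26 genes. F4MKO + FSTL1 replicate 3 lay lowest, at -0.17, with the lowest value for 8 genes. The other 7 libraries lay between -0.07 and 0.07. The summed CPM of the 19 enzymes was 845 to 1042 in Flox, 786 to 869 in F4MKO and 832 to 970 in F4MKO + FSTL1 livers, so the groups overlapped. Sc5d and Ebp weighed most in this sum, with Flox means of 295 and 166 CPM, so it says little about the other enzymes.

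Neighbouring pathways were read from lists drawn up beside these genes. In F4MKO + FSTL1 compared with F4MKO livers, 14.4% of all tested genes were called, 3.21% higher and 11.2% lower. The counts below are to be read beside these shares. Of 10 other tested genes of sterol synthesis or SREBP2 control, 1 was called in this comparison. This was Aacs, the acetoacetyl-CoA synthetase that feeds ketone bodies into sterol synthesis, with a log2 fold change of 1.08 (adjusted p = 0.0253). Acat1, the mitochondrial thiolase, passed the p threshold but not the fold (0.49, adjusted p = 0.0239). The list had 6 genes higher and 4 lower, with a median of 0.26. Of 8 genes of SREBP cleavage and sterol-regulated degradation, 0 were called. Of 13 genes of sterol efflux, uptake and LXR response, 1 was called lower, the exporter Abcg1 (-1.05, adjusted p = 0.00470), which is abundant in macrophages. Of 10 genes of fatty acid synthesis under SREBP1c, 1 was called lower, Fasn, the fatty acid synthase (-0.86, adjusted p = 0.0129). In this list 8 genes were lower and 2 higher, with a median of -0.27, and Acaca (-0.49, adjusted p = 0.0177) and Acly (-0.41, adjusted p = 0.0286) passed the p threshold but not the fold. In the other comparisons 0 genes of the 4 lists were called. By QPCR, the study reports Srebp1c, Scd1, Nr1h3 and Fas lower in F4MKO livers, and lipogenesis genes restored with FSTL1. Here Fasn (0.18, then -0.86 with FSTL1) and Scd1 (0.23, then -0.26) had the opposite signs. Srebf1 (-0.06, then 0.16) and Nr1h3 (-0.29, then 0.24) had the same signs and were not called. Liver cholesterol, which the study reports as lower in F4MKO mice, was not measured in these data.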

How the data were processed

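Livers of 9 mice (3 Flox, 3 F4MKO, 3 F4MKO + FSTL1) were sequenced as 150 bp paired-end reads on BGIseq500. Per the submitters' processing notes and the methods, reads were trimmed with Trim Galore 0.6.7, mapped to mm10 with HISAT2 2.2.1 and assigned to genes with featureCounts 2.0.1. The authors deposited the resulting raw counts per gene and library, without normalization. The annotation, the use of strand and the treatment of multi-mapping reads are not given in the sources used here.

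The analysis used edgeR 4.0.16 (R 4.3.3). Low counts were removed by filterByExpr (minimum count 10, minimum total 15, at least 3 libraries), and library sizes were scaled by TMM factors of 0.927 to 1.17. A single quasi-likelihood fit held all 9 libraries with a mean per group (common biological coefficient of variation 0.150). A gene was called at a Benjamini-Hochberg adjusted p under 0.05 over all tested genes and a fold change above 1.5. Intervals are 95%. CPM are TMM-scaled, log2 values used a prior count of 2, and means carry the SD of 3 mice. TPM used GENCODE vM21 exon lengths, found for 93.1% of tested genes. Promoter windows and coordinates came from RefSeq (GRCm38.p6, the patch release of mm10).

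The rule that took the members by symbol used no measured value. The members, roles, neighbouring lists and marker lists were nevertheless chosen with earlier results of these data known. Values in each liver are given for every gene called, for a fixed set of members and for Ebp, and the other members by range. Ebp is outside that set and lay just short of the fold threshold. Non-members are named from the lists if called or if a result turns on them. Replicate pairs of a group differed beyond counting noise. Replicate numbers 1 to 3 come from the labels, and same-numbered libraries are different mice. Their deviations correlated between -0.0985 and 0.304, not above 0.1 in every pair, so no pairing was used. Between F4MKO + FSTL1 and F4MKO livers, same-numbered pairs stood at 0.111, 0.0919 and 0.304, above all unlike pairs (-0.190 to 0.0834). In the other 2 comparisons unlike pairs reached 0.0499 (F4MKO and Flox) and 0.166 (F4MKO + FSTL1 and Flox), above some same-numbered pairs.

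The alternatives were DESeq2 1.42.0, its size factors in edgeR, no filter, 6 libraries only, the replicate block, p without a fold threshold, a test against 1.5-fold and each library left out. Scaling by library totals was added after seeing the data.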

Additional observations from a re-analysis of the deposited data

How the results depend on the processing

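For the 14 members described by liver, 714 values were recomputed, of which 672 kept their direction and their side of the threshold, 18 passed it only in the alternative, 9 no longer passed it and 15 changed sign. The other members gave 612 values, of which 604 moved by less than 1 SD. The causes were not tested.

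In F4MKO compared with Flox livers 0 members were called in every alternative. The genes called, 39 in the reported fit, were 338 with DESeq2, 478 without the filter on low counts, 11 with 6 libraries only, 0 (483 at an unadjusted p under 0.05) against 1.5-fold, 59 with library totals and 0 to 100 with a library left out. The members' median was 0.13 with library totals and -0.09 to 0.08 with a library left out. Values that changed sign were not called: Cyp51 was 0.06 with library totals, and with a library left out Cyp51 ran from -0.23 to 0.22, Hmgcs1 from -0.05 to 0.18, Idi1 from -0.01 to 0.29, Insig2 from -0.15 to 0.21 and Dhcr7 from -0.01 to 0.21.

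With FSTL1 compared with F4MKO alone, the members called were 7 on the adjusted p alone (adding Hmgcs1, Ebp and Scap, with 3001 of all 14379 genes called), 0 against 1.5-fold, where Soat1 came nearest (adjusted p = 0.0575), 5 with DESeq2 (2127 of all genes) and 3 to 6 with a library left out. The genes called were 620 against 1.5-fold and 1295 to 2216 with a library left out, and the members' median was -0.33 with library totals. Dhcr7 ran from -0.47 to 0.04 and Cyp51 from -0.24 to 0.02 with a library left out.

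In F4MKO + FSTL1 compared with Flox livers the members called were 0 or, without F4MKO + FSTL1 replicate 3, 1. The genes called, 1 in the reported fit, were 284 with DESeq2, 2 with its size factors in edgeR, 379 without the filter, 0 with 6 libraries only, 0 (378 unadjusted) against 1.5-fold, 2 with library totals and 0 to 101 with a library left out. Cyp51 then ran from -0.37 to 0.08, Insig1 from -0.21 to 0.13 and Dhcr7 from -0.36 to 0.15.

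With the replicate number as a block, the genes called were 134, 2170 and 15 in the 3 comparisons, and the members called were 0, 4 and 0, the same 4. No pairing by replicate number was used, so these values are given once. The 3 pairs of replicate 3 libraries correlated at 0.169, 0.304 and 0.206. Whether same-numbered libraries share a batch is not given in the labels and was not tested. Sqle and Soat1 rest on 58 to 204 counts per library, which limits their precision.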
